A study of Mus musculus with 16 samples.

Results

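The transcripts described here encode the enzymes that feed pyruvate into mitochondria, the tricarboxylic acid (TCA) cycle and mitochondrial fatty acid oxidation. They were chosen by name, as 38 gene symbols matched through the GENCODE annotation to the identifiers of a count table of 39057 genes, and all 38 passed the filter that left 12481 genes for testing. 9 of them act at pyruvate entry, 14 in the TCA cycle and 15 in fatty acid oxidation. Poly-A selected RNA was sequenced from 16 cultures of primary mouse brain endothelial cells isolated from the cerebral cortex, with 8 cultures per genotype and 4 males and 4 females in each. APOE3 and APOE4 mice were targeted replacement animals in which the human APOE3 or APOE4 isoform is expressed from the endogenous mouse promoter, in every cell type that uses that promoter and not in endothelial cells alone. Both groups were 21 to 28 days old, each well held the cells of 1 brain, and all cultures had passed through 8 µg/ml puromycin, were grown to confluence and received no further treatment. No wild-type or APOE-deficient cells were included, so each comparison sets APOE4 against APOE3.

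Pyruvate enters the cycle through the pyruvate dehydrogenase complex, which makes acetyl-CoA, or through pyruvate carboxylase, which makes oxaloacetate. Pyruvate dehydrogenase kinases phosphorylate and switch off the complex. The TCA cycle oxidizes acetyl-CoA and hands the electrons to the respiratory chain. Fatty acids reach the same acetyl-CoA by another route, through the carnitine shuttle, the acyl-CoA dehydrogenases and the beta-oxidation spiral, with the electrons leaving through electron transfer flavoprotein (ETF). Endothelial cells are known for making most of their ATP by glycolysis and for using carbon from fatty acids in biosynthesis.

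5 of the 38 transcripts differed between genotypes, 4 lower and 1 higher with APOE4 (edgeR quasi-likelihood test, adjusted p under 0.05 over all genes tested). This is 13.2% of them, and 12.8% of all genes tested passed the same test. In the higher direction the share of all genes was 6.71% and in the lower direction 6.09%. The transcripts that fell were Pdk2, a kinase of pyruvate dehydrogenase, and Acadvl, Eci1 and Acaa2 of fatty acid oxidation. The transcript that rose was Etfa, the alpha subunit of ETF. None of the 14 TCA cycle transcripts passed. The changes were small: the median size of the log2 fold change was 0.072 over the 38 and 0.089 over all genes, and the largest, for Pdk3, was 0.26.

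Promoter sequence was taken from RefSeq (GRCm38.p6) for 4 of the 5 transcripts that differed, to show what stands before the genes on which the genotype comparison turns. The runs below end at the base before the RefSeq start, except that the run of Eci1 stops earlier, where the GENCODE gene begins. Capitals mark matches to any of the 8 motifs listed after them, on either strand.
Pdk2, chr11:95041372-95041621, minus strand: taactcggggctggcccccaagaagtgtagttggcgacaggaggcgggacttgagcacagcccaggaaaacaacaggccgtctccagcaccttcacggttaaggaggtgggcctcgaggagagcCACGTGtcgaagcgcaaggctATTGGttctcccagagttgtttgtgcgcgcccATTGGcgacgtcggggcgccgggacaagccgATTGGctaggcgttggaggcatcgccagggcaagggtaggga
Acadvl, chr11:70015429-70015678, minus strand: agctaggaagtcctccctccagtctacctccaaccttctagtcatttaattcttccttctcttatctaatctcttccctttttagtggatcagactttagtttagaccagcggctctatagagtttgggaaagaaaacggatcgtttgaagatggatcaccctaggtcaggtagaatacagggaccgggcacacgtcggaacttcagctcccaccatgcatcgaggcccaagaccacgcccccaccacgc
Eci1, chr17:24426433-24426640, plus strand: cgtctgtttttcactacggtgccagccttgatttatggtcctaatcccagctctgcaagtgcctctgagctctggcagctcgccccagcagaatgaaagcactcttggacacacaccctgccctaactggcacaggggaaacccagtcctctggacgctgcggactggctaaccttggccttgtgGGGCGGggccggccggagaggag
Etfa, chr9:55512244-55512493, minus strand: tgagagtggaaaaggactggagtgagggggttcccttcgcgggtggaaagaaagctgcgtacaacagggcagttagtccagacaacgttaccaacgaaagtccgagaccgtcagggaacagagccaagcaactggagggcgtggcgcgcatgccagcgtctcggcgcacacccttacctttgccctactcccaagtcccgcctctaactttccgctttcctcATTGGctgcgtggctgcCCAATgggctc

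In the Pdk2 window the E-box CACGTG stood at position -126 and CCAAT boxes at -105, -73 and -42, counted back from the RefSeq start. Etfa had CCAAT boxes at -28 and -11, Eci1 had 1 GC box at -65, and the Acadvl window held none of the letters searched. For Eci1 the RefSeq start lies past the end of the printed run, so -65 does not count from that end. Over the 250 bases before the start, 36 of the 38 genes had an entry in the promoter table. Idh3a and Acaa2 had none. The GC box GGGCGG was in promoters of 24 of the 36 genes and in 35.4% of all 27025 symbols of the table, and the CCAAT box CCAAT in 19 of 36 and 37.5%. The E-box was found in 3 (Pdk2, Pcx and Ogdh, with 6.86% of all symbols) and the cyclic AMP response element TGACGTCA in 2 (Ogdh and Mdh2, with 1.77%). 3 further motifs were found in 1 gene each. They were the nuclear receptor site AAGGTCA in Acadm (4.70% of all symbols), the ETS motif CCGGAAGT in Cpt2 (3.23%) and the NRF1 motif, a 10-base palindrome, in Etfdh (0.877%). The direct repeat with a spacer of 1 base that nuclear receptor pairs bind was in none of the 36 and in 0.0407% of all symbols. The 27025 symbols were not limited to genes tested here, while all 36 genes were tested, so the 2 sets are not matched. The motif matches describe letters in a window, and binding was not measured.

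Libraries held 12717847 to 18624417 counts, and the 38 transcripts had 92 to 7070 counts in a library. Together they took 0.246% ± 0.00653 of the counts in APOE3 and 0.244% ± 0.00419 in APOE4 (SD, n = 8). Xist counts matched the labelled sex in all 16 libraries, and human APOE was present in each, at 1003 to 1425 CPM (counts scaled to a fixed library total after TMM normalization) with APOE3 and 609 to 1013 with APOE4. The list of 18 endothelial markers, Pecam1 and Cdh5 among them, summed to 20388 to 21658 CPM in APOE3 and 20162 to 22293 in APOE4. Of these 18, 1 differed by edgeR, Emcn, which was higher with APOE4 (log2 fold change 0.14, adjusted p = 0.0106), 6 had an unadjusted p under 0.05 and 11 lay below 0. In bulk RNA, fewer cells of a type and less RNA per cell cannot be told apart. Of 8 fibroblast markers 5 were tested and 1, Fbln1, was higher with APOE4; their sum was 24.9 to 75.4 CPM in APOE3 and 28.2 to 106.4 in APOE4, with Dcn, Lum and Slc6a13 at 10 counts or fewer in every library. Of 12 pericyte and smooth muscle markers 9 were tested and 0 differed by edgeR (2 at an unadjusted p under 0.05), with sums of 192.6 to 361.6 and 227.3 to 345.1 CPM. Of the astrocyte, microglial, oligodendrocyte and neuronal lists no marker differed by the adjusted edgeR test, Gfap, Aqp4, P2ry12 and Itgam had 6 counts or fewer in every library, and erythroid markers reached at most 0.124 CPM in sum. The list of 26 cell cycle genes moved with genotype: 24 were higher with APOE4, and its summed level was 1192 to 2403 CPM in APOE3 and 1977 to 3383 in APOE4. The part of cell cycle activity or of other cell types in the differences below was not tested.

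Levels between genes were compared as RPKM, the CPM divided by the kilobases of exon of the gene, where length is the union of annotated exons, so genes with long annotated but little used exons come out low. Ogdh, the E1 subunit of the 2-oxoglutarate dehydrogenase complex, was highest at 66.5 ± 2.54 RPKM (SD, n = 16). Acadl, the long-chain acyl-CoA dehydrogenase, followed at 54.7 ± 2.55, then the mitochondrial malate dehydrogenase Mdh2 at 48.1 ± 1.86 and citrate synthase Cs at 35.3 ± 2.76. Each of these steps held in 16 of 16 libraries. Pdk1 was lowest at 1.98 ± 0.249 RPKM, and the highest and lowest differed 33.6-fold. Of the 37 neighbouring pairs in the order, 7 kept their order in all 16 libraries. The others, for example Pdk4, Mdh1, Pdha1 and Acadvl, all near 20 RPKM, were not separated in that way.

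**Figure D1:**
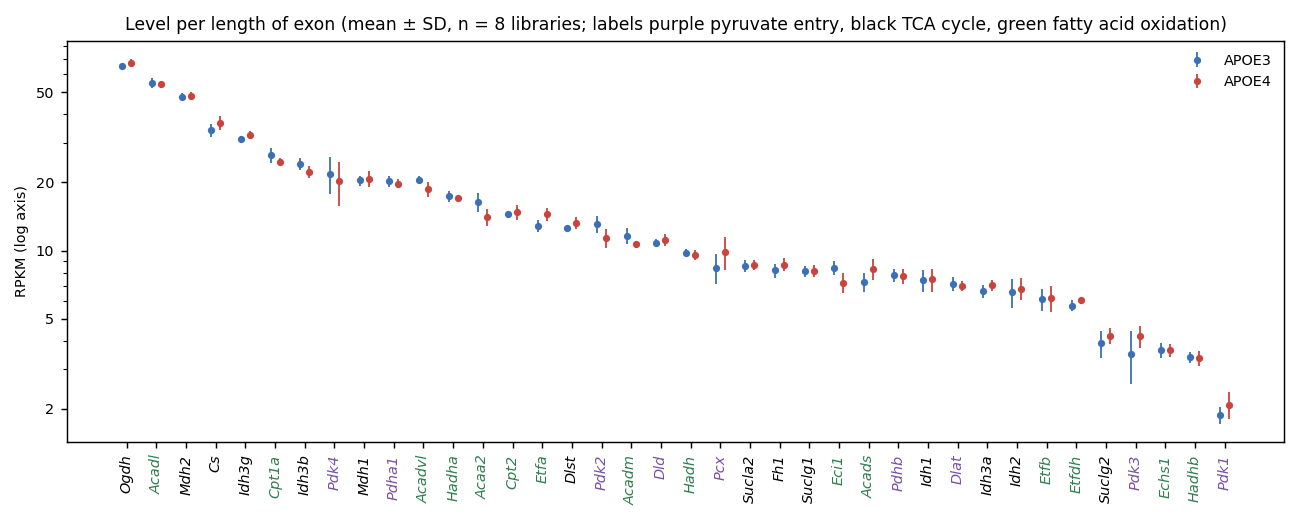
Level of each of the 38 transcripts in RPKM (log axis), from the highest to the lowest, as mean ± SD of 8 libraries for APOE3 (blue) and APOE4 (red). The levels run from Ogdh at 66.5 to Pdk1 at 1.98 RPKM, and the points of the genotypes lie close together throughout.

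At pyruvate entry 1 of 9 transcripts differed, where 12.8% of all genes did. The median log2 fold change was -0.015 with 4 above 0 and 5 below, against -0.0002 over all genes. The 4 subunits of the pyruvate dehydrogenase complex did not pass. Pdha1, the E1 alpha subunit, had a log2 fold change of -0.03, Pdhb, the E1 beta subunit, -0.015, Dlat, the E2 acetyltransferase, -0.03, and Dld, the E3 subunit shared with the 2-oxoglutarate complex, 0.05. The 95% intervals of these 4 reached no farther than 0.14 from 0 on the log2 scale. Pdhb shares 11.4% of its 50-base stretches with other genes, most with the processed pseudogene Gm6123, which had at most 3 counts. Pdha1 overlaps exons of Map3k15 on the opposite strand by 603 bases, and Map3k15 had 2 to 19 counts.

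The 4 kinases had log2 fold changes on both sides of 0, and 1 of them passed. Pdk2 (chr11:95026258-95041354, ENSMUSG00000038967.13), a widely expressed isoform, ranged from 36.0 to 45.8 CPM with a median of 42.5 in APOE3, and from 30.0 to 41.3 with a median of 36.1 in APOE4. The ranges overlapped, but all 8 APOE4 libraries lay below the APOE3 median and 4 lay below the lowest APOE3 library. Pdk2 fell by 13.1% with APOE4, a log2 fold change of -0.20 (SE 0.0609, edgeR adjusted p = 0.0344). Pdk3, an X-linked isoform, was at 6.499 to 12.5 CPM (median 8.57) in APOE3 and 9.50 to 12.996 (median 10.5) in APOE4. All 8 APOE4 libraries of Pdk3 lay above the APOE3 median, yet 1 APOE3 library was above 7 of them, and the log2 fold change of 0.26 did not pass (SE 0.129, edgeR adjusted p = 0.186).

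Pdk1, the hypoxia-inducible isoform, was at 13.02 to 16.4 CPM (median 14.4) in APOE3 and 13.2 to 19.6 (median 16.03) in APOE4. Its log2 fold change was 0.15 (SE 0.0800, edgeR adjusted p = 0.214). Pdk4, the isoform induced by fasting and by fatty acids, was at 54.9 to 102.7 CPM (median 77.3) in APOE3 and 49.8 to 91.3 (median 66.7) in APOE4. Neither isoform separated the genotypes: for Pdk4 the log2 fold change was -0.11 with a 95% interval of -0.37 to 0.15 (edgeR adjusted p = 0.598). Per length, Pdk4 made up 53.9% ± 5.51 of the kinase transcripts in APOE3 and 52.9% ± 4.40 in APOE4 (SD, n = 8). Pdk2 made up 32.7% ± 4.03 and 30.2% ± 2.38, Pdk3 8.72% ± 2.44 and 11.2% ± 1.76, and Pdk1 4.71% ± 0.774 and 5.66% ± 1.38. The kinases summed over the 4 subunits they regulate gave a log2 ratio that differed by -0.08 between genotypes and did not pass (two-sided exact permutation test, p = 0.402, adjusted p = 0.643 over 8 ratios).

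Pcx, pyruvate carboxylase, was at 32.6 to 51.7 CPM (median 38.6) in APOE3 and 37.9 to 59.3 (median 45.1) in APOE4. 7 of 8 APOE4 libraries lay above the APOE3 median, with broad overlap. The log2 fold change of 0.23 did not pass (SE 0.0965, 95% interval 0.03 to 0.43, edgeR adjusted p = 0.116). Within libraries the log2 ratio of Pcx to Pdha1, carboxylation against decarboxylation of pyruvate, was 0.26 higher with APOE4 (exact permutation test, p = 0.0645, adjusted p = 0.269). That of Pdk4 to Pdk1 differed by -0.26 (exact permutation test, adjusted p = 0.434).

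**Figure D2:**
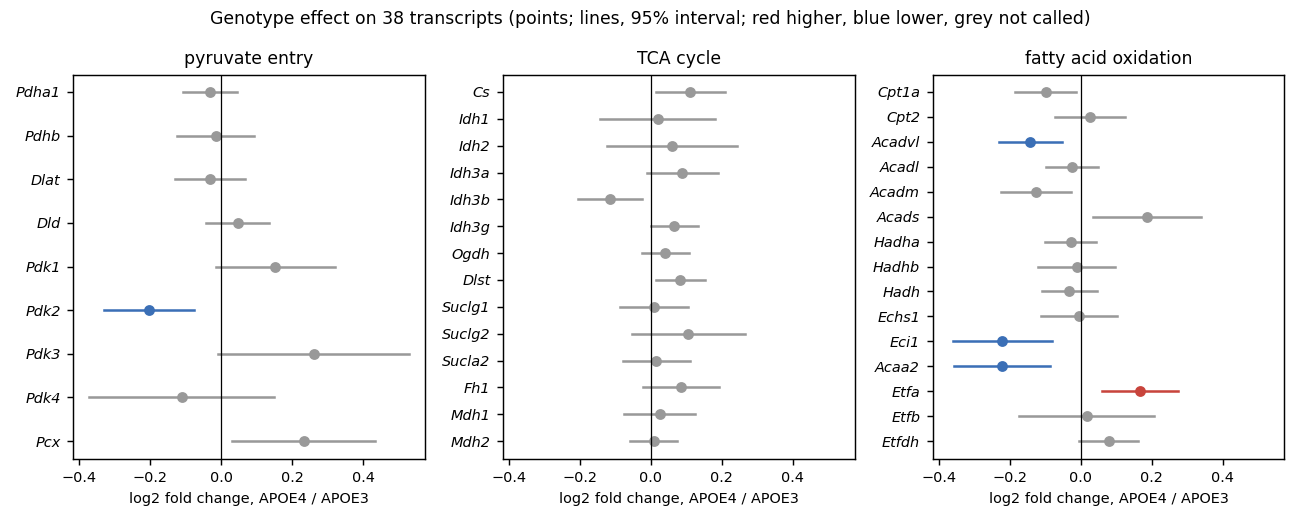
Log2 fold change of APOE4 over APOE3 for the 9 pyruvate entry, 14 TCA cycle and 15 fatty acid oxidation transcripts (points, with 95% intervals as lines; 8 libraries per genotype). Blue marks the 4 that were lower and red the 1 that was higher at an adjusted p under 0.05, and the TCA cycle panel holds only grey points, 13 of them to the right of 0.

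In the TCA cycle 0 of 14 transcripts differed by edgeR's adjusted test, where 12.8% of all genes did. Of the 14, 3 (Cs, Idh3b and Dlst) had an unadjusted p under 0.05, a rule that 29.0% of all genes met. The DESeq2 Wald test also called 0 of the 14. The median log2 fold change was 0.050, with 13 above 0 and 1 below, while genes as a whole split into 6232 above and 6249 below. The split was 9 and 5 with a median of 0.0605 after correction for GC content and length, and 5 and 9 with a median of -0.033 with the cell cycle score in the fit. That score itself moved with genotype. Transcripts of the cycle summed to 0.126% ± 0.00315 of the counts in APOE3 and 0.128% ± 0.00463 in APOE4 (SD, n = 8). No 95% interval of the 14 reached farther than 0.264 from 0.

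Cs, citrate synthase, joins acetyl-CoA to oxaloacetate. It was at 180.6 to 215.7 CPM (median 197.8) in APOE3 and 198.0 to 243.3 (median 206.6) in APOE4. All 8 APOE4 libraries were above the APOE3 median and 2 were above the highest APOE3 library. The log2 fold change was 0.11 (SE 0.0467, 95% interval 0.01 to 0.21, edgeR adjusted p = 0.122). Idh3b, the beta subunit of the NAD-dependent isocitrate dehydrogenase, was the single transcript of the cycle below 0. It was at 78.2 to 93.7 CPM (median 80.7) in APOE3 and 70.0 to 84.7 (median 75.2) in APOE4, with 6 of 8 APOE4 libraries below the lowest APOE3 library. Its log2 fold change of -0.12 missed the threshold (SE 0.0428, edgeR adjusted p = 0.0775).

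The partner subunits of the same enzyme lay on the other side of 0, with a log2 fold change of 0.09 for the catalytic Idh3a and 0.07 for the X-linked Idh3g, and neither passed. Idh1, the cytosolic NADP-dependent enzyme, had 0.02 and Idh2, its mitochondrial counterpart, 0.06. Per length Idh3g made up 41.0% ± 0.855 of the 5 isocitrate dehydrogenase transcripts in APOE3 and 42.7% ± 1.36 in APOE4, and Idh3b 31.9% ± 1.78 and 29.3% ± 1.45 (SD, n = 8). The log2 ratio of Idh2 to the summed NAD-dependent subunits differed by 0.07 and that of Idh1 to Idh2 by -0.05, neither beyond the spread (exact permutation tests, adjusted p = 0.656 and 0.706).

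Ogdh was at 341.0 to 380.1 CPM (median 354.9) in APOE3 and 346.2 to 389.1 (median 367.2) in APOE4. These ranges almost coincide, and the log2 fold change was 0.04 (SE 0.0314, 95% interval -0.02 to 0.11, edgeR adjusted p = 0.417). Dlst, the E2 subunit of the same complex, had very even APOE3 libraries at 119.0 to 121.3 CPM, while APOE4 libraries spread from 117.6 to 141.3. 6 of the 8 APOE4 libraries of Dlst were above and 2 below the whole APOE3 range, and its log2 fold change of 0.08 did not pass (SE 0.0332, edgeR adjusted p = 0.102).

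Suclg2, the GTP-forming beta subunit of succinyl-CoA synthetase, was at 15.4 to 21.9 CPM (median 17.3) in APOE3 and 17.1 to 21.4 (median 19.4) in APOE4. No APOE4 library lay outside the APOE3 range, and the log2 fold change was 0.11 (SE 0.0760, edgeR adjusted p = 0.381). 15.96% of its 50-base stretches are shared with other genes, most with the processed pseudogene Gm15163, which had 9 to 39 counts, so its reads may have been split. The ATP-forming partner Sucla2 had a log2 fold change of 0.02 and the alpha subunit Suclg1 0.01, and the log2 ratio of Suclg2 to Sucla2 differed by 0.10 (exact permutation test, adjusted p = 0.370). Fumarase (Fh1) had 0.09, the cytosolic malate dehydrogenase Mdh1 0.02 and Mdh2 0.01, the last with an interval of -0.06 to 0.07. None of these 5 passed the test.

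In fatty acid oxidation 4 of 15 transcripts differed, with 3 lower and 1 higher, where 12.8% of all genes did. The median log2 fold change was -0.025, with 5 above 0 and 10 below, and all genes split into 6232 and 6249. No test set these 15 against other genes. Summed, these transcripts took 0.0837% ± 0.00311 of the counts in APOE3 and 0.0804% ± 0.00168 in APOE4 (SD, n = 8).

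Cpt1a makes acylcarnitines at the outer mitochondrial membrane and is the regulated step of the carnitine shuttle. It was at 189.9 to 231.1 CPM (median 195.1) in APOE3 and 180.7 to 198.2 (median 188.6) in APOE4. 4 of 8 APOE4 libraries were below the lowest APOE3 library, yet the ranges overlapped, and the log2 fold change of -0.10 did not pass (SE 0.0411, 95% interval -0.18 to -0.01, edgeR adjusted p = 0.117). Cpt2, which reverses the transfer on the matrix side, had 0.03, and the log2 ratio of Cpt1a to Cpt2 differed by -0.12 (exact permutation test, p = 0.0671, adjusted p = 0.269).

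The acyl-CoA dehydrogenases catalyse the first oxidation, each on a range of chain lengths, and 1 of the 4 passed, where 12.8% of all genes did. Acadvl (chr11:70010183-70015411, ENSMUSG00000018574.14), the very long-chain enzyme, was at 53.0 to 58.6 CPM (median 54.7) in APOE3 and 45.1 to 56.7 (median 49.3) in APOE4. 7 of 8 APOE4 libraries were below the lowest APOE3 library. Acadvl fell by 9.35%, a log2 fold change of -0.14 (SE 0.0422, edgeR adjusted p = 0.0330). Its exons overlap those of Dvl2, a Wnt signalling adaptor on the opposite strand, by 1151 bases, and Dvl2 was lower as well, at a log2 fold change of -0.28 (SE 0.0635, edgeR adjusted p = 0.0104). As the strand setting of the counting is not given in the sources used here, reads of this overlap cannot be assigned to Acadvl alone. Dvl2 had 184 to 297 counts in a library.

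Acadm, the medium-chain enzyme, had a log2 fold change of -0.13, with all 8 APOE4 libraries below the APOE3 median, and missed the threshold (edgeR adjusted p = 0.0806). Acads, the short-chain enzyme, was on the other side of 0, at 13.9 to 18.6 CPM (median 16.4) in APOE3 and 15.9 to 22.9 (median 18.6) in APOE4. 5 of its 8 APOE4 libraries lay above the highest APOE3 library, and the log2 fold change of 0.19 did not pass either (SE 0.0730, edgeR adjusted p = 0.0955). Acadl, which made up 58.3% ± 1.68 of these dehydrogenase transcripts per length in APOE3 and 59.1% ± 1.14 in APOE4 (SD, n = 8), had a log2 fold change of -0.02 with an interval of -0.10 to 0.05.

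Of the later enzymes of the spiral, 2 of 6 passed, where 12.8% of all genes did. Hadha and Hadhb, the subunits of the trifunctional protein for long chains, had log2 fold changes of -0.03 and -0.01. Hadh and Echs1, the dehydrogenase and hydratase for shorter chains, had -0.03 and -0.0035, so none of these 4 differed. Hadhb shares 19.7% of its 50-base stretches with other genes, most with the pseudogene Gm13910 at 10 to 24 counts, and Echs1 overlaps Paox on the opposite strand by 142 bases.

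Eci1 (chr17:24426641-24439348, ENSMUSG00000024132.5) is the isomerase that moves double bonds so that unsaturated fatty acids can be oxidized. It was at 15.8 to 20.4 CPM (median 17.7) in APOE3 and 12.4 to 17.1 (median 15.9) in APOE4. Every APOE4 library of Eci1 stood under the middle of the APOE3 range, its median, and 3 under its lowest library. Eci1 fell by 14.2% (log2 fold change -0.22, SE 0.0670, edgeR adjusted p = 0.0359). Acaa2 (ENSMUSG00000036880.9), the thiolase that releases acetyl-CoA, was at 21.0 to 27.1 CPM (median 25.8) in APOE3 and 19.2 to 24.7 (median 20.7) in APOE4. Here too the whole APOE4 group stood under the APOE3 median, and 4 libraries under its lowest value. Acaa2 fell by 14.2% (log2 fold change -0.22, SE 0.0653, edgeR adjusted p = 0.0316).

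ETF takes the electrons from the acyl-CoA dehydrogenases and passes them to its ubiquinone oxidoreductase. Etfa (chr9:55454508-55512243, ENSMUSG00000032314.14) was at 20.6 to 25.2 CPM (median 23.9) in APOE3 and 23.6 to 29.1 (median 26.5) in APOE4. 7 of 8 APOE4 libraries were above the highest APOE3 library. Etfa rose by 12.2% (log2 fold change 0.17, SE 0.0513, edgeR adjusted p = 0.0375). Etfb, the beta subunit of the same heterodimer, had a log2 fold change of 0.02 with an interval of -0.17 to 0.21. Its reads are uncertain, since 44.8% of its 50-base stretches are shared and 678 exon bases lie within the same-strand gene Gm45233, which had at most 2 counts. Etfdh, the oxidoreductase, had 0.08 and did not pass.

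**Figure D3:**
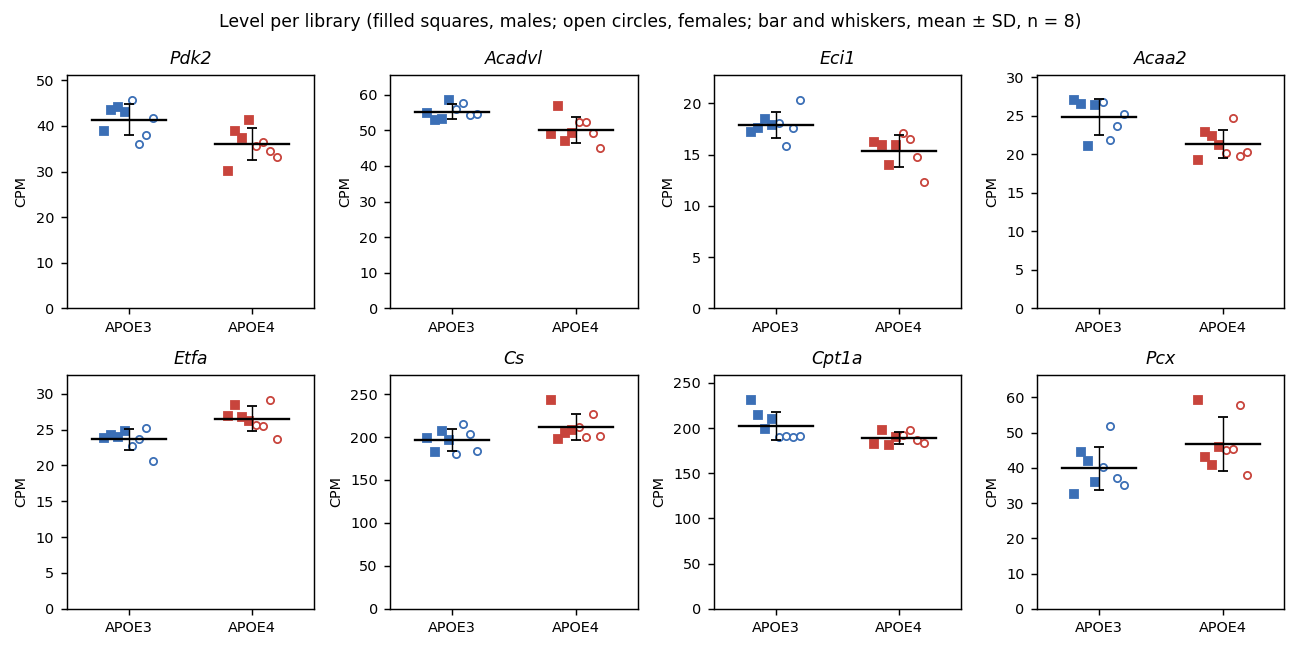
CPM of the 5 transcripts that differed between genotypes and of Cs, Cpt1a and Pcx in each of 16 libraries (males as filled squares, females as open circles), with mean ± SD of 8 libraries as bar and whiskers. In each panel the genotypes overlap, least for Etfa and Acadvl, where 7 of 8 APOE4 libraries lie beyond the APOE3 range.

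For none of the 38 transcripts were the genotypes free of overlap, a pattern that 0.625% of all genes showed. The 5 calls were close to the threshold, with adjusted p from 0.0316 to 0.0375, and were sensitive to single libraries. When 1 library was left out, 4 to 7 calls were made in 7 of 16 fits, 1 to 3 in 6 fits and 0 in 3 fits. The count dropped to 0 when APOE3 replicate 30, APOE3 replicate 33 or APOE4 replicate 41 was left out, and to 1 when APOE3 replicate 26, APOE3 replicate 28 or APOE4 replicate 35 was. Leaving out APOE4 replicate 37 gave 2, leaving out APOE3 replicate 27 or APOE4 replicate 43 gave 3, and the highest count, 7, came without APOE3 replicate 31. Over these fits the log2 fold change of Pdk2 stayed between -0.23 and -0.17, of Acadvl between -0.17 and -0.12, of Eci1 between -0.24 and -0.18, of Acaa2 between -0.25 and -0.20, and of Etfa between 0.14 and 0.19. With a score of the 26 cell cycle genes as a covariate, 0 of the 38 and 0 genes in all passed edgeR's test (3 and 900 at an unadjusted p under 0.05). In that fit the log2 fold change was -0.06 for Pdk2, -0.07 for Acaa2, 0.08 for Etfa, -0.17 for Eci1 and -0.14 for Acadvl.

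**Figure D4:**
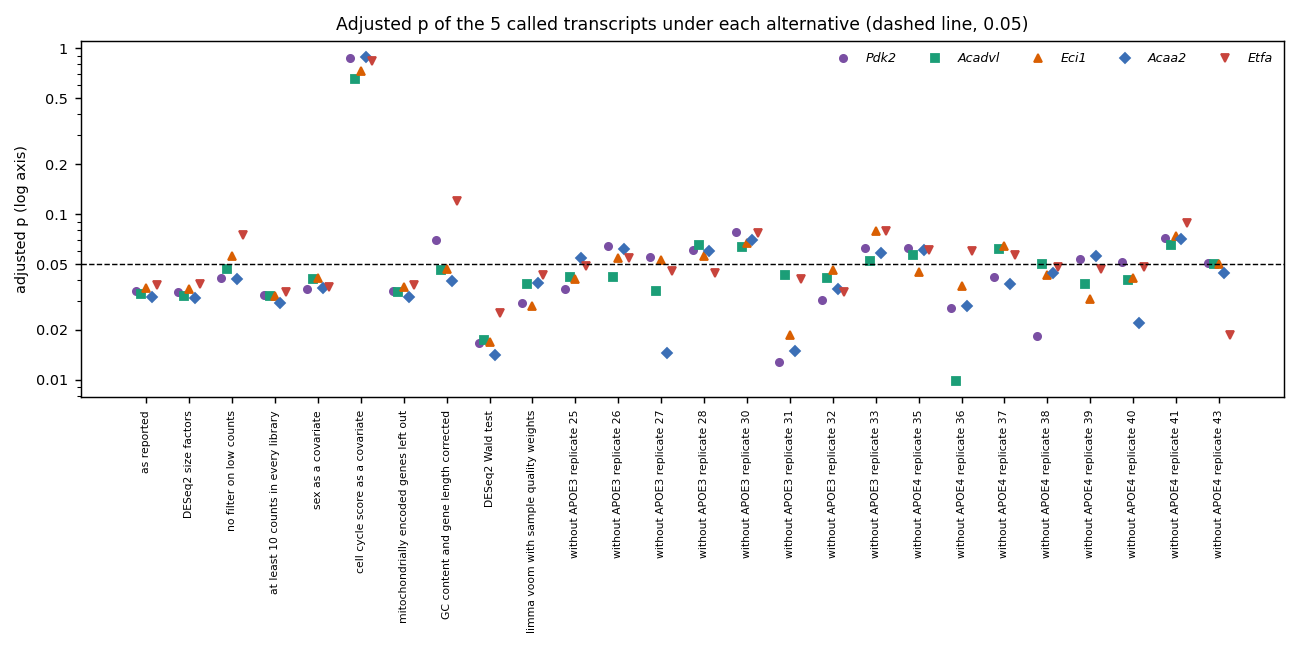
Adjusted p (log axis) of Pdk2, Acadvl, Eci1, Acaa2 and Etfa as reported and under 9 other ways of fitting and 16 fits that leave out 1 library (dashed line, 0.05). The points stay close to the line, on both sides of it, except in the fit that holds a cell cycle score, where all 5 lie above 0.5.

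Within males 0 of 38 transcripts differed between genotypes by edgeR's adjusted test, as did 0% of all genes, with 5 of 38 at an unadjusted p under 0.05 (14.2% of all genes). Within females the counts were 0 and 6, with 19.5% of all genes at an unadjusted p under 0.05. The DESeq2 Wald test called Cpt1a in males, 1 of 34 genes called in all, and in females 0 of the 38 while 418 genes were called in all. 27 of the 38 had the same sign in both sexes, and the share of all genes with the same sign was not counted. The 5 transcripts reported as differing were called on both sexes together, a choice that favours like effects in males and females. Their log2 fold changes in males and females were -0.20 and -0.21 for Pdk2 and -0.12 and -0.16 for Acadvl. They were -0.20 and -0.24 for Eci1, -0.24 and -0.20 for Acaa2, and 0.16 and 0.17 for Etfa. The SE of the difference between the sexes ran from 0.0895 for Acadvl to 0.140 for Eci1.

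The difference between the sexes in the genotype effect passed for 0 of 38 by edgeR's adjusted test and for 0 by DESeq2, and 1, Cpt1a, had an unadjusted p under 0.05 (2.76% of all genes). In males Cpt1a was at 199.1 to 231.1 CPM with APOE3 and 180.7 to 198.2 with APOE4, and in females at 189.9 to 191.2 and 183.6 to 197.5. The male ranges did not overlap while the female ranges did, with log2 fold changes of -0.19 and -0.0048. The same was seen for Idh3b, Idh3g, Eci1 and Etfa, so this pattern was not particular to Cpt1a. The reverse, female ranges without overlap and male ranges with overlap, was seen for Pdk1, Dlst and Acadvl. The share of either pattern over all genes was not counted. For Cpt1a the difference between the sexes of 0.18 (SE 0.0660) had an edgeR unadjusted p of 0.0126 and an adjusted p of 0.9999. Pdk3 had 0.09 in males and 0.44 in females, a difference of 0.35 with an SE of 0.256.

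Between females and males, with genotype in the fit, 0 of 38 differed (0.0721% of all genes by edgeR's adjusted test) and 0 by DESeq2, and 1 had an unadjusted p under 0.05 (4.41% of all genes). The largest difference was -0.16 for Pdk4 on the log2 scale, female over male. 3 of the genes, Pdha1, Pdk3 and Idh3g, lie on the X chromosome, and their log2 differences were -0.03, -0.08 and -0.01.

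**Figure D5:**
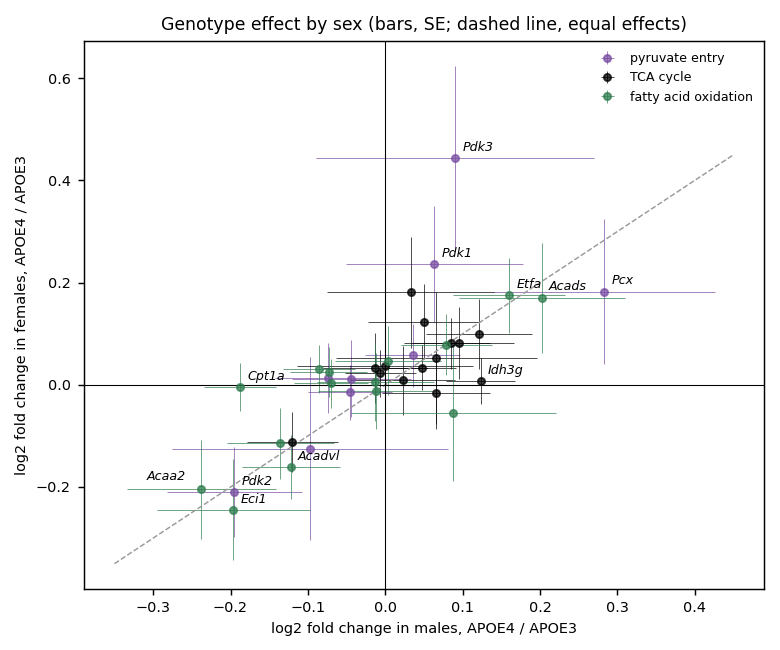
Log2 fold change of APOE4 over APOE3 in males (x axis) against females (y axis) for the 38 transcripts, with SE as bars, 4 libraries per sex and genotype; the dashed line marks equal effects. Pdk2, Eci1, Acaa2 and Etfa lie near the line, and Cpt1a (-0.19 in males, -0.0048 in females) and Pdk3 (0.09 and 0.44) lie off it.

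Other genes of these pathways, 99 in 6 lists with 93 tested, gave 6 that were higher and 5 that were lower with APOE4, where 12.8% of all genes differed. Among 12 other pyruvate genes 1 rose, Me2, the mitochondrial NAD-dependent malic enzyme (log2 fold change 0.21, SE 0.0690, edgeR adjusted p = 0.0478). Among 16 other TCA genes, including aconitases, succinate dehydrogenase and mitochondrial carriers, 0 passed edgeR's adjusted test and 2 had an unadjusted p under 0.05. Their median log2 fold change was 0.034.

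Of 26 other fatty acid oxidation genes 3 rose and 1 fell. Cpt1c, a carnitine palmitoyltransferase isoform best known from neurons, was at 5.83 to 9.64 CPM in APOE3 and 7.03 to 11.3 in APOE4 (log2 fold change 0.41, edgeR adjusted p = 0.0293). Acadsb, which acts on branched short chains, and Oxct1, which activates ketone bodies, both rose by 0.20 on the log2 scale (edgeR adjusted p = 0.0143 and 0.0356). Acot2, a mitochondrial thioesterase, fell by 0.38 on the log2 scale (edgeR adjusted p = 0.0291).

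In peroxisomes, which shorten very long chains, 11 genes were tested. Acaa1a, the peroxisomal thiolase, fell by 0.19 on the log2 scale (edgeR adjusted p = 0.00986) and Decr2, a peroxisomal dienoyl-CoA reductase, rose by 0.19 (edgeR adjusted p = 0.0340). Of 14 tested genes of fatty acid uptake and storage 2 fell. Gpihbp1, which carries lipoprotein lipase to the luminal face of capillaries, was at 23.2 to 48.0 CPM in APOE3 and 8.49 to 25.5 in APOE4, and the genotype difference was -0.81 on the log2 scale (SE 0.177, edgeR adjusted p = 0.00873). Lipe, hormone-sensitive lipase, was at 53.9 to 76.7 and 48.1 to 60.9 CPM, and differed by -0.38 on the log2 scale (SE 0.0742, edgeR adjusted p = 0.00643). Both had larger changes than any of the 38.

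Of 14 tested transcriptional regulators 1 rose and 1 fell, and 12 lay below 0, as did 50.1% of all genes; this lean was not tested. Hif1a, the oxygen-regulated subunit of hypoxia-inducible factor, was at 107.2 to 122.3 CPM in APOE3 and 123.9 to 131.5 in APOE4, without overlap (log2 fold change 0.15, SE 0.0311, edgeR adjusted p = 0.00802). Nrip1, a corepressor of nuclear receptors, fell by 0.23 on the log2 scale (edgeR adjusted p = 0.0123). Ppargc1a, the coactivator known for driving mitochondrial gene expression, was low, at 1.81 to 4.98 CPM in APOE3 and 1.46 to 3.49 in APOE4, and its log2 fold change of -0.43 did not pass (SE 0.216, edgeR adjusted p = 0.198).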

How the data were processed

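RNA was measured in 16 cultures, 8 APOE3 and 8 APOE4, each from 1 brain. The authors deposited a table of counts, whole numbers of reads per gene without normalization. The submitters' processing notes name STAR, featureCounts, mm10 and hg38; versions, annotation and strand setting are not given in the sources used here. Libraries were strand-selected and amplified by 17 cycles of PCR without molecular identifiers, so depth (12717847 to 18624417 counts) covers counting error only. Gene names came from GENCODE for GRCm38, and 185 identifiers of the table were not matched.

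Counts were fitted in edgeR 4.0.16 (R 4.3.3) with filterByExpr by genotype, TMM, genotype as the single term and Benjamini-Hochberg adjustment over 12481 genes, with a threshold of 0.05. Sex effects came from 1 fit of 4 groups of 4 libraries. SE was the log2 fold change divided by the square root of F. Ratios used log2 CPM sums and all 12870 assignments in a two-sided exact permutation test. Alternatives used DESeq2 1.42.0, limma 3.58.1, other filters and covariates, and each library left out. On simulated counts for these 12481 genes the genotype fit recovered 193 of 200 genes changed by 1 on the log2 scale. It also called 20 others, to which no change had been given. The largest change among the transcripts described here was 0.26, so recovery of changes as small as theirs was not tested. Figures were drawn with matplotlib 3.10.9 in Python 3.11.15. Genes named with their values are those that passed, the regulatory enzymes Pdk1, Pdk2, Pdk3, Pdk4, Pcx, Cs, Ogdh and Cpt1a, the 3 with the largest change in each pathway, and, from other lists, up to 5 that passed. Dlst, Acadm and Ppargc1a were named after their values were seen. The genes and lists were chosen with earlier results of these data known.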

Additional observations from a re-analysis of the deposited data

Results flagged for a closer look

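In 76 groups (38 transcripts in 2 genotypes, 8 libraries each) the highest or lowest library was compared with the next one by Dixon's test, and 4 stood apart, while chance flags about 1 group in 20. They were Pdha1 at 84.7 CPM in APOE3 replicate 25, Idh3g at 79.8 CPM in APOE4 replicate 43, Mdh2 at 189.1 CPM in APOE4 replicate 35 and Hadha at 135.4 CPM in APOE3 replicate 32. These are 4 different libraries, and none of these transcripts differed between genotypes.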

How the results depend on the processing

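Of 9 other ways of fitting, 5 calls among the 38 transcripts were also made with DESeq2's size factors, at least 10 counts in every library, sex in the fit, without the mitochondrially encoded genes, the DESeq2 Wald test and limma voom, for the transcripts reported. Without a filter on low counts 3 passed, 0 of them higher, as Eci1 and Etfa no longer did among more genes tested. When a cell cycle score entered the fit 0 passed, 0 higher and 0 lower, and Pdk3 (-0.091), Pcx (-0.075), Cs (-0.060) and Ogdh (-0.033) turned below 0 on the log2 scale. As the score moved with genotype, that fit cannot fully separate the score from genotype. With GC content and gene length corrected 5 passed, but Idh3b (-0.14) and Acads (0.23) replaced Pdk2 (-0.17) and Etfa (0.12). The DESeq2 Wald test called 1 of the 38 within males. The cause of these shifts was not tested.

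Leaving out 1 library gave 0 to 7 calls, 0 to 2 higher and 0 to 5 lower, 0 to 1 within females (Pdk3, without APOE3 replicate 31, when 879 of all genes passed in females) and 0 to 0 within males, for the difference between sexes and by sex. Of the 16 fits, Pdk2 passed in 6, Acadvl, Eci1 and Acaa2 in 8 each and Etfa in 9, and 846 to 2127 of all genes passed. Log2 ratios differed by -0.14 to -0.09 for Cpt1a to Cpt2, 0.20 to 0.32 for Pcx to Pdha1, -0.12 to -0.03 for the kinases to their complex, -0.35 to -0.18 for Pdk4 to Pdk1, 0.07 to 0.14 for Suclg2 to Sucla2 and 0.02 to 0.11 for Idh2 to the NAD-dependent subunits. Those of Idh1 to Idh2 (-0.11 to 0.023, with 0.023 without APOE3 replicate 33 and 0.013 without APOE4 replicate 35) and Mdh1 to Mdh2 (-0.0031 to 0.031, with -0.0031 without APOE3 replicate 27) changed sign. No paired analysis was possible because the genotypes share no replicate numbers. The SE of the 38 log2 fold changes, 0.0314 to 0.129, limits what 8 libraries per genotype can show.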
